A study of Homo sapiens with 18 samples.

Results

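TGM2 is the gene of tissue transglutaminase, and its transcript was followed here in U87 cells, a long-established human glioblastoma line. Its row was taken from each of the 18 deposited gene tables by the gene name, which gave 1 gene (ENSG00000198959) of the 60675 gene IDs listed, with 1 value of each measure in every library. The cells, labelled as carrying no genetic modification, had received a single 24 h treatment. The 6 groups of 3 libraries were bexarotene, A34, A41, A80 and A98, each at 100 nM, and ethanol as the negative control. Bexarotene is a drug that activates the retinoid X receptors (RXR), and compounds of this kind are called rexinoids; A34, A41, A80 and A98 are known here by their codes only, so nothing is said of their structures. RNA depleted of ribosomal RNA was sequenced, and the comparisons ask how far TGM2 moved with each rexinoid and whether the 5 compounds differed. All libraries came from this 1 line. The labels do not state whether replicate libraries are separate cultures; the p-values therefore reflect library-to-library spread, which may be only technical.

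Tissue transglutaminase is a calcium-dependent enzyme that joins glutamine and lysine side chains, which crosslinks proteins inside and outside the cell. When calcium is low it binds GTP and works as a signalling protein, and at the cell surface it bridges integrins and fibronectin. TGM2 is a classic retinoid-induced gene: RXR paired with a retinoic acid receptor (RAR) can raise its transcription when ligand binds. In glioblastoma the enzyme has been studied for its part in matrix assembly, adhesion and the mesenchymal cell state.

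In the deposited tables TGM2 lies on chromosome 20 (GRCh38), bases 38127385 to 38166578 on the minus strand, a span of 39194 bases. GENCODE release 29 gives it 6 transcripts, of which 3 are protein coding and 3 retain an intron. The longest coding one, TGM2-201, has 13 exons over 5070 bases, with a coding sequence of 2061 bases. The tables give 1 value for the whole gene, so the transcripts were not told apart. The last 396 bases of RPRD1B, a gene on the plus strand that encodes a regulator of RNA polymerase II, overlap the 3′ end of TGM2 (bases 38127385 to 38127780). Whether strand was used in the quantification is not stated, so reads from the shared stretch cannot be assigned to either gene.

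TGM2 was one of the abundant messages of these cells. Among 19903 protein-coding genes its TPM (a transcript's share of its library) ranked between 206 and 489 in the 18 libraries, where rank 1 is the highest. A41 libraries held ranks 206, 224 and 232, against 459, 489 and 483 in ethanol libraries. Its mean coverage was 91.5 to 389 reads per base, so the depth behind each value was high, and libraries rested on 1.31 to 3.89 gigabases of aligned sequence. Ribosomal RNA took 56.1% of TPM in A41 replicate 2, 44.9% in bexarotene replicate 1 and 35.5% in ethanol replicate 2, against 0.352% to 4.36% in the other 15 libraries. TPM is a share of a library, so every other gene reads low in those 3 libraries. Levels below are therefore TPM divided by a median-of-ratios factor per library, called scaled TPM, and are given with the deposited values.

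The largest TGM2 level was found with A41. It was 358, 353 and 320 scaled TPM in the 3 A41 libraries (mean 344 ± 20.8, SD, n = 3), against 167, 159 and 165 scaled TPM in the ethanol libraries (164 ± 4.32). The other 4 rexinoids lay between these groups. A34 libraries had 231, 204 and 199 scaled TPM (211 ± 17.3), and A80 libraries had 227, 202 and 202 scaled TPM (210.4 ± 14.0). Bexarotene libraries had 226, 191 and 185 scaled TPM (201 ± 22.3), and A98 libraries had 206, 197 and 199 scaled TPM (201 ± 4.77). The order of the means was thus A41, A34, A80, bexarotene, A98 and ethanol. The 4 groups between A41 and ethanol overlapped one another, and neighbours among them did not differ beyond their spread.

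**Figure D1:**
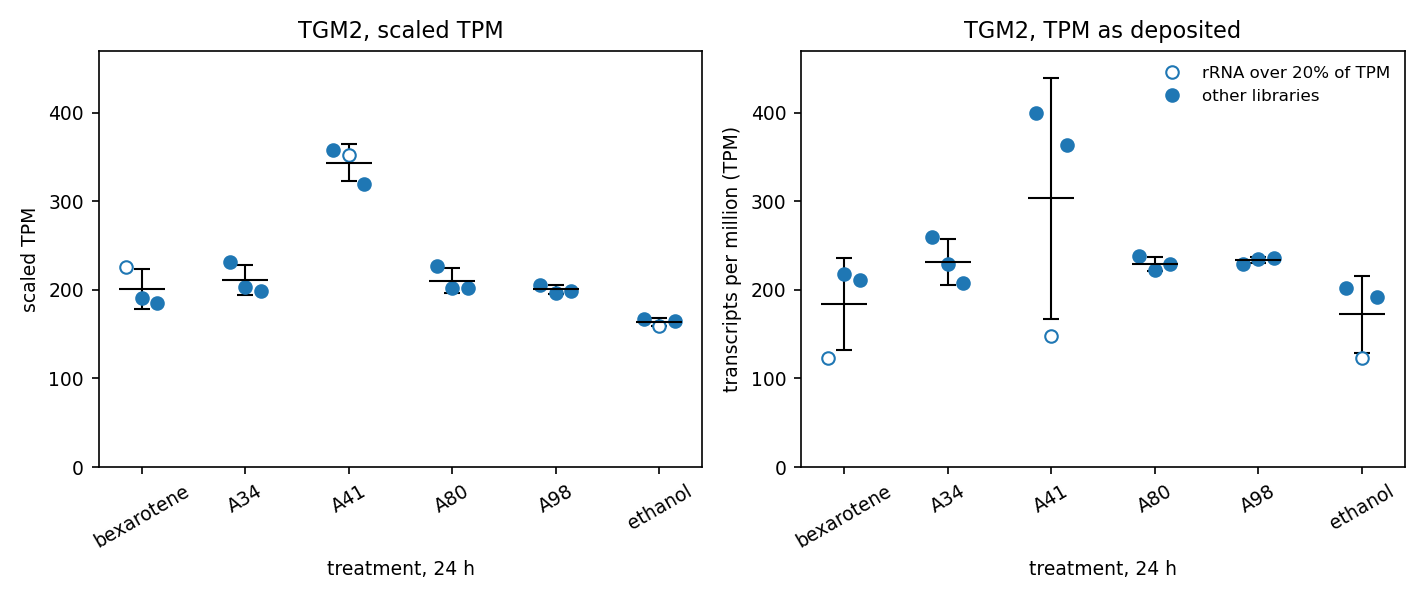
TGM2 in each of the 18 libraries by treatment, as scaled TPM (left) and as deposited TPM (right); points are libraries, and the line and bars are the mean and SD of 3. Open points are the 3 libraries with over 20% of TPM in ribosomal RNA, of which A41 replicate 2 has 353 scaled TPM but 148 TPM as deposited.

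No A41 library overlapped any other library. The lowest of them had 320 scaled TPM, against a highest of 231 scaled TPM in the other 15 libraries, a separation seen for 119 of 18269 tested genes (0.651%). The lowest of the 15 rexinoid libraries had 185 scaled TPM, against a highest of 167 scaled TPM in ethanol, a separation seen for 149 genes (0.816%). TGM2 showed both separations, as did 22 genes in all (0.12%).

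In TPM as deposited the picture was less even. A41 libraries had 400, 148 and 363 TPM, against 203, 123 and 192 TPM in ethanol libraries, and the A41 library with 148 TPM is the one with the largest share of ribosomal RNA. Bexarotene libraries had 124, 218 and 211 TPM, and the lowest again was the ribosomal RNA-rich one. The other 9 rexinoid libraries ranged from 207 to 259 TPM. FPKM, the second deposited unit, was 201, 103 and 183 for A41 and 98.8, 70.9 and 94.1 for ethanol. After removal of the ribosomal RNA genes, with no other scaling, TGM2 stood at 401, 337 and 366 TPM in A41 libraries and at 203, 190.4 and 201 TPM in ethanol libraries, which no longer overlapped.

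TGM2 rose with A41. The log2 fold change against ethanol was 1.06 (SE 0.08, limma adjusted p = 4.0e-06), a 2.09-fold increase with an interval of 1.85 to 2.36. In that comparison 138 of 18269 genes passed the threshold (0.755%), 93 of them higher (0.509%), and TGM2 had the sixth smallest p. By fold change it stood at place 29 of the 93 raised genes. By level in ethanol and by gain in scaled TPM it held place 5 of 93, since it added 179.9 scaled TPM to an already abundant message. Without the 3 libraries rich in ribosomal RNA the log2 fold change was 1.02 (limma adjusted p = 0.00017). With ribosomal RNA genes removed in place of scaling it was 0.89 (limma adjusted p = 4.6e-05). With TPM as deposited it was 0.72 and did not pass (limma adjusted p = 0.82).

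With the other 4 rexinoids TGM2 stood above ethanol in every library but, without a replicate block, did not pass when adjusted over all genes. The log2 fold change was 0.29 for bexarotene (interval 0.11 to 0.46, limma adjusted p = 0.84) and 0.36 for A34 (0.18 to 0.54, 0.16). It was 0.36 for A80 (0.18 to 0.54, limma adjusted p = 0.23) and 0.29 for A98 (0.11 to 0.47, 0.60). These intervals are for TGM2 alone, are not adjusted for the number of genes and hold for scaled TPM, where none includes 0. The size moved with the scaling and the libraries. With ribosomal RNA genes removed in place of scaling, the log2 fold change was 0.14 for bexarotene, 0.23 for A34, 0.22 for A80 and 0.25 for A98 (SE 0.09 each). For bexarotene it was 0.18 (SE 0.09) without the 3 libraries rich in ribosomal RNA and 0.08 (SE 0.37) with TPM as deposited. With a block on the replicate number, TGM2 passed with A34 and A80 (limma adjusted p = 0.017 each). For TGM2 itself, replicate 1 was the highest library in 6 of 6 groups. Across genes, however, same-numbered libraries of A34 or A80 and ethanol hardly deviated together (r −0.01 to 0.09), so a pairing is not shown. Over the 15 pairs of groups compared for TGM2, the limma p adjusted over those pairs only was 0.0057 for bexarotene and for A98 and 0.0013 for A34 and for A80. That adjustment covers no other gene, and TGM2 was chosen with its A41 result known. The shares of all tested genes past the threshold over all genes were low: 0.0547% with bexarotene, 0.0821% with A34, 0.0438% with A80 and 0.0328% with A98. All 3 libraries of a rexinoid lay above all 3 of ethanol for 6.88% (bexarotene), 8.22% (A34), 8.27% (A41), 8.6% (A80) and 8.49% (A98) of genes, and TGM2 was among them each time. The exact permutation test over 3 against 3 libraries gave a two-sided p of 0.1 for each, the smallest it can give.

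Expressed as a share of the A41 gain, the increase in mean scaled TPM over ethanol was 20.6% for bexarotene, 26.3% for A34, 26.0% for A80 and 20.5% for A98. These shares have the same ethanol libraries in every term. For the mean of the 5 rexinoids against ethanol, to which A41 contributes, the log2 fold change was 0.47 (SE 0.06, limma adjusted p = 0.0026), where 37 genes passed (0.203%). This call was lost without ethanol replicate 2 (0.45, limma adjusted p = 0.053) and with ribosomal RNA genes removed in place of scaling (0.35, limma adjusted p = 0.060).

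**Figure D2:**
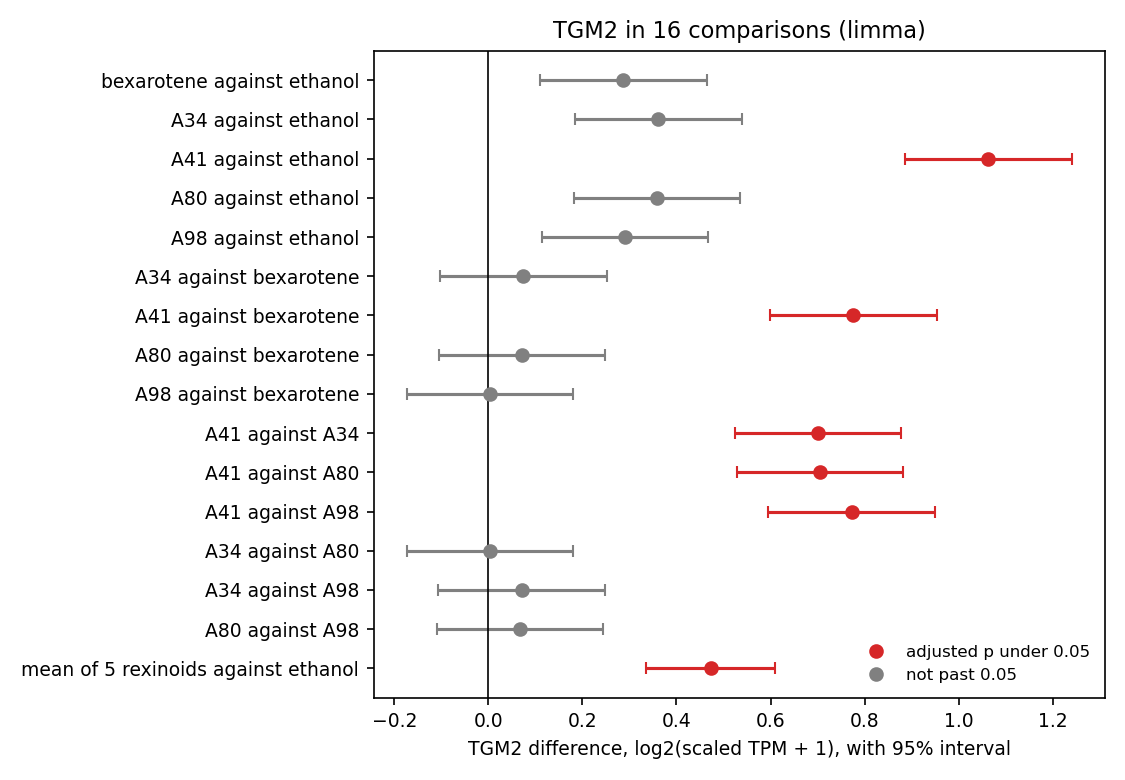
TGM2 difference in 16 comparisons, as log2(scaled TPM + 1) with the 95% interval from limma; red marks an adjusted p under 0.05 over all genes. The A41 differences are the largest, at 1.06 against ethanol and 0.70 to 0.78 against the other rexinoids. The intervals of A41 against the other rexinoids overlap that of the mean of the 5 rexinoids against ethanol. The 6 differences among bexarotene, A34, A80 and A98 have intervals that all include 0.

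The 5 rexinoids were given at the same dose and time, so their TGM2 levels can be compared directly. In an F test for any difference among them, TGM2 had the fourth smallest p of 18269 genes (limma adjusted p = 0.0013), and 12 genes passed (0.0657%). A41 exceeded each of the other 4. Its log2 difference was 0.78 from bexarotene (interval 0.60 to 0.95, limma adjusted p = 0.00045), 0.70 from A34 (0.52 to 0.88, 0.0019), 0.71 from A80 (0.53 to 0.88, 0.0014) and 0.77 from A98 (0.60 to 0.95, 0.00048). In linear terms TGM2 was 1.71-fold higher with A41 than with bexarotene. The shares of genes called in these comparisons were 0.115%, 0.0712%, 0.126% and 0.131% in the same order, and TGM2 held places 4, 3, 4 and 4 by p. All 4 calls held when any 1 library of the groups compared was left out; none passed with TPM as deposited, where the limma adjusted p was 0.64 to 1.0. When only the 6 libraries compared were fitted, A41 against A98 still passed, and A41 against bexarotene, A34 and A80 did not (limma adjusted p = 0.14, 0.33 and 0.24).

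Between bexarotene, A34, A80 and A98 no TGM2 difference passed. Against bexarotene the log2 difference was 0.07 for A34 (interval −0.10 to 0.25), 0.07 for A80 (−0.11 to 0.25) and 0.00 for A98 (−0.17 to 0.18). It was 0.00 for A34 against A80 (−0.17 to 0.18), 0.07 for A34 against A98 (−0.11 to 0.25) and 0.07 for A80 against A98 (−0.11 to 0.24). Differences of up to about 0.25 on the log2 scale are within these intervals, so the data do not show that the 4 compounds act alike on TGM2. The smallest limma adjusted p for TGM2 among the 6 pairs was 0.89. Over all genes 1 passed (0.00547%) in each of A98 against bexarotene, A34 against A98 and A80 against A98, and 0 in the other 3.

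TGM2 was nearly the whole of its family in these cells. The human family has 9 members: TGM1 to TGM7, the clotting factor XIII A chain F13A1, and EPB42, a red cell membrane protein without enzyme activity. TGM2 made up between 99.4% and 99.96% of the family's summed TPM in every library. The next members were TGM1, the keratinocyte enzyme, with a mean of 0.248 scaled TPM over the 18 libraries, and F13A1 with 0.176. TGM4 (prostate), TGM5 (skin), TGM7 and EPB42 had means of 0.0286, 0.00710, 0.0122 and 0.00636 scaled TPM, and TGM3 and TGM6 were listed at 0 in all 18 libraries. None of these 8 passed the filter of 1 TPM in 3 libraries, so they were not tested.

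Of 16 other genes that retinoids are known to induce 10 were tested, and 5 of these passed with A41, all higher. Over all tested genes 0.755% passed, 0.509% as higher, and this list was chosen with earlier results known. CYP26B1, a cytochrome P450 that degrades retinoic acid, was at 67.5, 54.5 and 52.0 scaled TPM with A41, against 4.86, 3.01 and 3.97 with ethanol (log2 fold change 3.58, limma adjusted p = 7.4e-08). STRA6, the cellular retinol importer, had 9.5, 6.97 and 7.46 scaled TPM with A41, against 0.871, 0.313 and 0.739 with ethanol (2.46, limma adjusted p = 1.1e-05). DHRS3, which reduces retinaldehyde to retinol, had 159, 145 and 161 scaled TPM with A41, against 29.9, 37.0 and 37.6 with ethanol (2.13, limma adjusted p = 1.5e-09). For each of the 3 genes the lowest A41 library lay well above the highest ethanol library. A separation in that direction, of any size, was seen for 8.27% of tested genes.

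The corepressor NRIP1 had 50.5, 44.9 and 43.1 scaled TPM with A41, against 24.6, 30.05 and 27.1 with ethanol (log2 fold change 0.74, limma adjusted p = 0.00029). The homeobox gene HOXA5 was near the lower end of detection, at 3.50, 3.24 and 3.84 scaled TPM with A41 and 1.66, 1.72 and 1.47 with ethanol (0.79, limma adjusted p = 0.024). Its call was lost without any 1 of the 6 libraries (limma adjusted p 0.062 to 0.13). The 5 others had log2 fold changes of 0.16 to 0.79; CRABP2, a carrier of retinoic acid and the most abundant of them at a mean of 50.4 scaled TPM, had an adjusted p of 0.32 in limma. The median of the 10 was 0.76, against −0.01 over all genes tested, and all 10 values were positive.

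With each of the other 4 rexinoids, CYP26B1 and DHRS3 were the 2 list members that passed. Over all tested genes the shares that passed were 0.0328% to 0.0821%. CYP26B1 with A80 did not pass without ethanol replicate 2 (limma adjusted p = 0.053) or A80 replicate 1 (0.051). The medians of the 10 genes were 0.22 for bexarotene, 0.26 for A34, 0.41 for A80 and 0.22 for A98. As a share of the A41 gain, CYP26B1 reached 18.7% with bexarotene, 26.5% with A34, 17.2% with A80 and 19.4% with A98. DHRS3 reached 26.4%, 35.5%, 28.5% and 27.4% in the same order, and STRA6 reached 19.2%, 19.6%, 13% and 15.8%. The TGM2 shares given above lie within the range of these 3 genes. The other 2 raised list members differed more. NRIP1 reached 26.0%, 22.9%, 12.4% and 17.5% in the same order, and HOXA5 stood at −17.4%, −1.9%, −11.0% and 2.0%. CYP26B1, DHRS3 and STRA6 were higher with A41 than with each of the other 4 rexinoids, and these calls held when any 1 library was left out. NRIP1 also passed in all 4 of these comparisons and HOXA5 in those with bexarotene and A80. NRIP1 over A80 held under every omission. The other NRIP1 calls and both HOXA5 calls were each lost without any 1 of at least 3 of the 6 libraries (limma adjusted p 0.051 to 0.17).

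None of the RAR and RXR receptor genes tested passed. Of the 6 RAR and RXR genes 5 were tested, and 0 passed with any of the 5 rexinoids against ethanol (limma, lowest adjusted p with A41 0.35). Over all tested genes 0.755% passed with A41 and 0.0328% to 0.0821% with the others, so the lack of a call among 5 genes says little about them. Their mean levels over the 18 libraries were 27.8 scaled TPM for RARG, 17.9 for RARA, 9.0 for RXRB, 6.49 for RARB and 5.65 for RXRA; RXRG averaged 0.120 and was listed at 0 in 15 libraries. With A41 the log2 fold changes were −0.06 to 0.54. The highest belonged to RARB, with 11, 6.27 and 6.93 scaled TPM in A41 libraries, against 5.11, 5.10 and 5.06 in ethanol libraries.

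Among surface proteins that TGM2 binds, 2 of the 11 tested passed with A41, in opposite directions. Over all tested genes 0.509% passed as higher and 0.246% as lower, and this list was chosen with earlier results known. ITGB3, the integrin beta 3 chain, rose to 213, 180 and 168 scaled TPM with A41 (187 ± 23.6, n = 3), against 112, 92.7 and 95.2 with ethanol (99.9 ± 10.4; log2 fold change 0.89, SE 0.14, limma adjusted p = 0.0047). CD44, the hyaluronan receptor, fell to 864, 855 and 935 scaled TPM with A41, against 1216, 1074 and 1156 with ethanol (−0.38, SE 0.08, limma adjusted p = 0.027). The libraries of the groups did not overlap for either gene. All 3 A41 libraries lay above all 3 of ethanol for 8.27% of tested genes, and the share in the other direction was not counted. ITGB3 kept its call when any 1 library was left out, but not without the 3 ribosomal RNA-rich libraries (0.87, limma adjusted p = 0.10). CD44 lost its call without ethanol replicate 1 (limma adjusted p = 0.14), ethanol replicate 3 (0.12), A41 replicate 1 (0.090), A41 replicate 2 (0.11) or A41 replicate 3 (0.051).

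The other 9 surface partners had log2 fold changes of −0.08 to 0.35. They include integrin beta 1 (ITGB1, mean 324 scaled TPM), the adhesion receptor ADGRG1 (197), the fibronectin receptor chain ITGA5 (166) and syndecan-4 (SDC4, 133). The median of the 11 was 0.17. None of the 11 passed with another rexinoid against ethanol, where 0.0328% to 0.0821% of all tested genes did. None passed in A41 against another rexinoid either, where 0.0712% to 0.131% did.

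**Figure D3:**
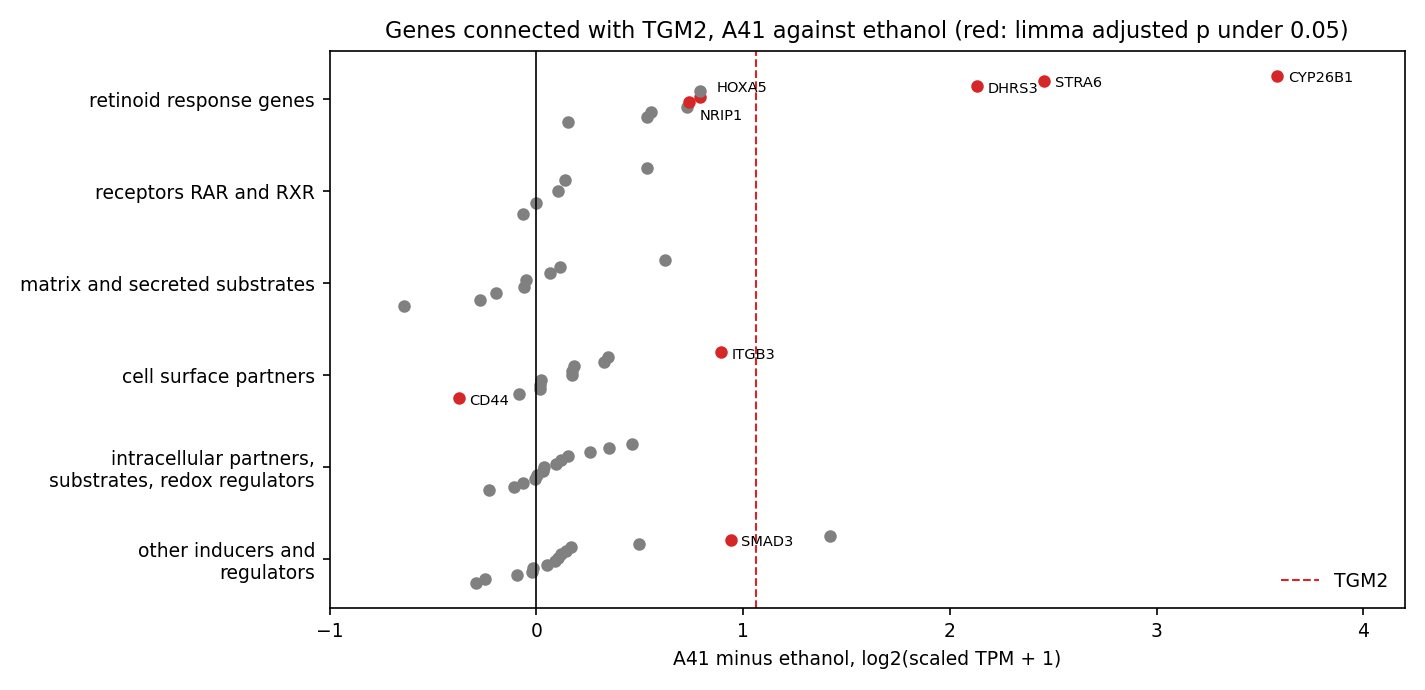
Log2 difference of A41 from ethanol for each tested gene of the 6 lists, with TGM2 as the dashed line at 1.06. The retinoid response genes lie to the right of 0, 3 of them beyond TGM2, while most receptors, substrates and partners gather around 0.

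The matrix and secreted proteins that transglutaminase crosslinks did not pass. Of 10 genes 8 were tested, with a median log2 fold change of −0.06 with A41 and values of −0.64 to 0.62. Over all tested genes 0.755% passed with A41, so the lack of a call in a list of this size says little about it. Fibronectin (FN1) had 382, 275 and 249 scaled TPM in A41 libraries, against 409, 269 and 270 in ethanol libraries, so replicate 1 was high in both groups. LTBP1, a binding protein of latent TGF-beta, averaged 63.5 scaled TPM over the 18 libraries, osteopontin (SPP1) 57.4 and collagen COL1A1 45.5. The lowest adjusted p of the list in limma was 0.053. Of 14 intracellular partners, substrates and redox regulators 13 were tested and none passed, with a median of 0.04 and log2 fold changes of −0.23 to 0.46. The most abundant of them were calreticulin (CALR, 756 scaled TPM), the autophagy receptor SQSTM1 (458), the small GTPase RHOA (405) and thioredoxin (TXN, 392), the last of which can switch extracellular TGM2 to its active form. Neither list had a call with another rexinoid, where 0.0328% to 0.0821% of all tested genes passed against ethanol.

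Of 15 other genes that induce or regulate TGM2, 14 were tested and 1 passed with A41, where 0.755% of all tested genes did. SMAD3, which carries the TGF-beta signal to the nucleus, was at 78.1, 70.3 and 74.3 scaled TPM with A41 (74.3 ± 3.88), against 36.9, 40.0 and 37.7 with ethanol (38.2 ± 1.59). Its log2 fold change was 0.94 (SE 0.10, limma adjusted p = 1.0e-04), and the call held when any 1 library was left out. The inflammatory cytokine IL1B (mean 550.1 scaled TPM), the hypoxia factors HIF1A (283) and EPAS1 (84.7) and the TGF-beta receptor TGFBR1 (64.8) did not pass. IL1B had a larger and more scattered difference than TGM2, with 1052, 843 and 473 scaled TPM in A41 libraries, against 281, 273 and 284 in ethanol libraries (log2 fold change 1.42, limma adjusted p = 0.11). The median of the 14 was 0.10, and none passed with another rexinoid against ethanol, where 0.0328% to 0.0821% of all tested genes did.

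SMAD3 was also higher with A41 than with each other rexinoid. The log2 difference was 0.70 from bexarotene (limma adjusted p = 0.0086), 0.61 from A34 (0.032), 0.69 from A80 (0.0076) and 0.65 from A98 (0.014). The first was lost without bexarotene replicate 2 (limma adjusted p = 0.057) or A41 replicate 3 (0.051), and the A80 one without A80 replicate 2 (0.061). The A34 and A98 calls were each lost in 5 of 6 omissions; the first held only without A34 replicate 1, and the second held only without A41 replicate 2.

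SMAD3 and ITGB3 were also the 2 genes most like TGM2 in pattern. Likeness was the root-mean-square difference over the 18 libraries between each gene's log2 change from its ethanol mean and that of TGM2, among 15734 genes. It was 0.113 for SMAD3 and 0.126 for ITGB3, against 0.516 for a gene with no change in any library and a median of 0.566 over all genes. The next were ID1, an inhibitor of differentiation factors (0.131), BTBD11 (0.134), FAM89B (0.153), the growth factor binding protein IGFBP6 (0.156), the semaphorin and VEGF co-receptor NRP2 (0.160) and SEC14L2, a lipid transfer protein (0.173). Since these genes were picked for following TGM2, their A41 values are descriptions: log2 fold changes were 0.89 for ID1, 0.83 for BTBD11, 0.97 for FAM89B, 0.80 for IGFBP6, 1.14 for NRP2 and 0.74 for SEC14L2. For 7 of the 8, all but SEC14L2, the A41 libraries lay above every other library. For 7 of the 8, all but ITGB3, every rexinoid library lay above every ethanol library. Both counts are descriptions too, since TGM2 has these separations and the genes were picked for likeness to it. Over all tested genes the shares were 0.651% and 0.816%.

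**Figure D4:**
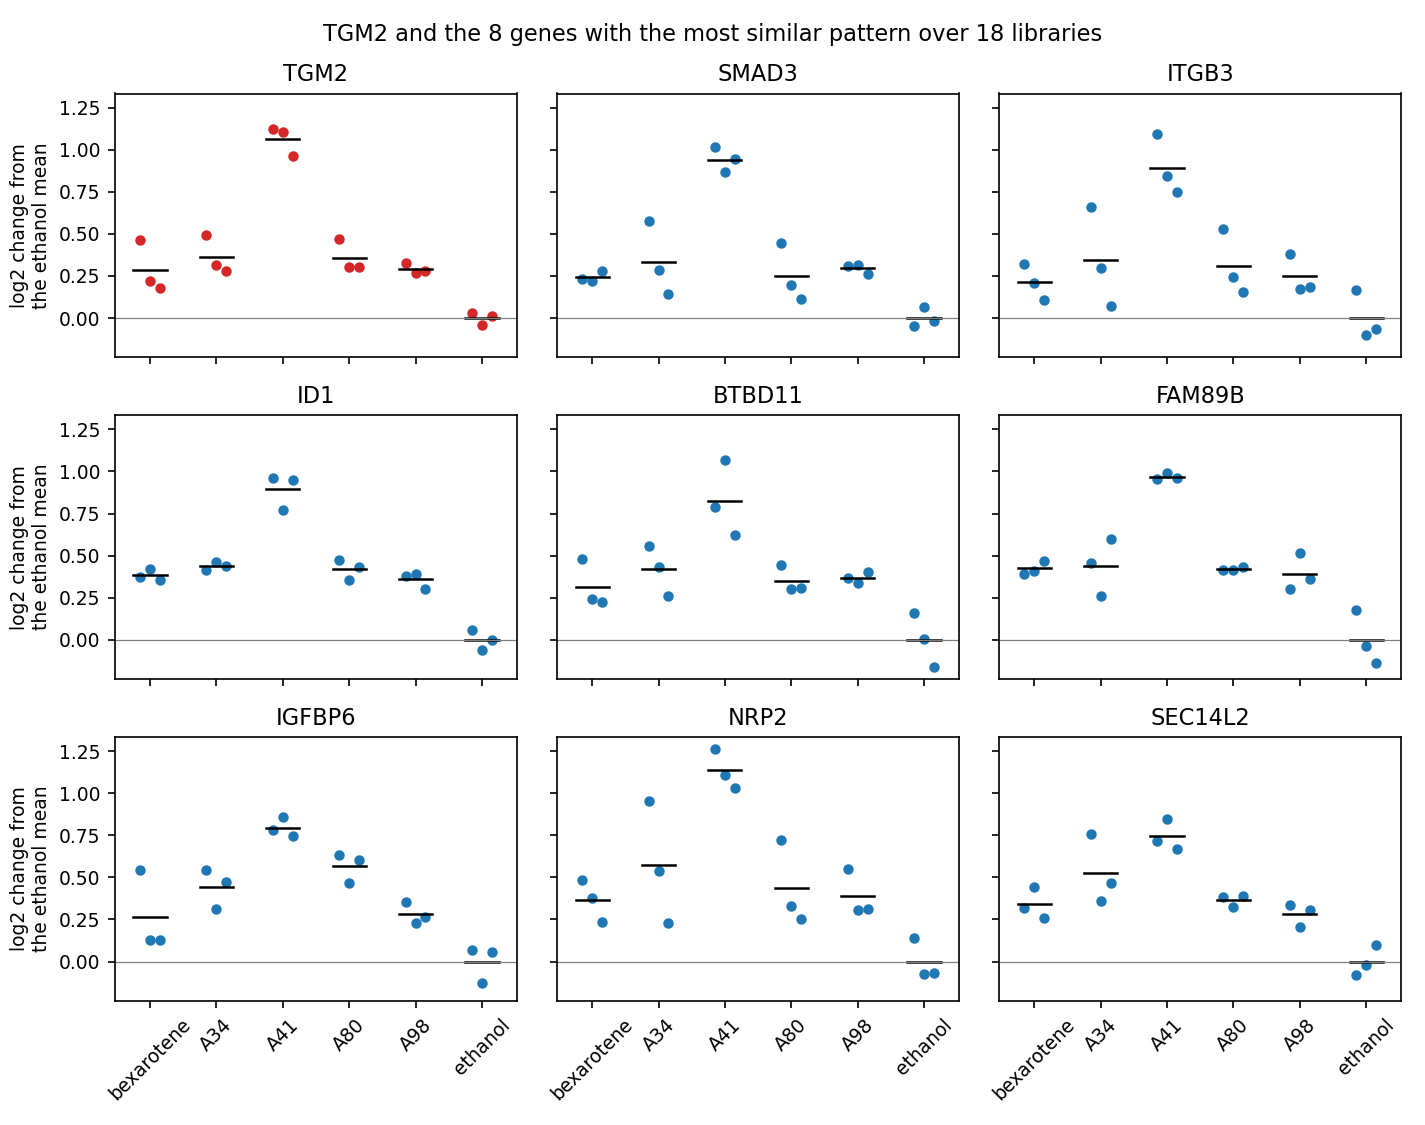
Log2 change of scaled TPM from the ethanol mean for TGM2 and the 8 genes of most similar pattern, by treatment; points are libraries and lines are means of 3. TGM2 stands at 1.06 with A41 and at 0.29 to 0.36 with the other rexinoids, while IGFBP6 and SEC14L2 have less of a gap between A41 and the rest.

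The 8 genes differed in how much of the A41 gain the other compounds gave. For SMAD3 the shares were 19.9% with bexarotene, 29.3% with A34, 21.2% with A80 and 24.6% with A98, and for ITGB3 they were 18.1%, 32.7%, 28.1% and 21.5%. SEC14L2 reached 39.3%, 66.6%, 42.4% and 32.0% in the same order, and IGFBP6 reached 65.5% with A80. TGM2, at 20.5% to 26.3%, was at the low end of this set.

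None of the 7 genes examined near TGM2 on chromosome 20 passed. Of 8 other genes listed within 100 kb at any level, only RPRD1B and TTI1 were examined. RPRD1B, which overlaps TGM2, averaged 24.5 ± 1.63 scaled TPM with A41 and 23.3 ± 0.19 with ethanol (n = 3 each; log2 fold change 0.07, limma adjusted p = 0.77). The 3 nearest genes of at least 1 scaled TPM toward lower coordinates were TTI1 (93.9 kb away), RN7SKP185 (152 kb) and CTNNBL1 (255 kb). Toward higher coordinates they were SNHG17 (253 kb) and the small nucleolar RNAs SNORA71B and SNORA71A, which lie within it. None of the 7 passed with A41, with log2 fold changes of −0.62 to 0.53 and a lowest limma adjusted p of 0.71. In the 35 tests of these genes over the 5 ethanol comparisons none passed (lowest limma adjusted p 0.32). Over all tested genes 0.755% passed with A41 and 0.0328% to 0.0821% with the others, so the lack of a call among 7 genes says little about the locus.

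The label glial cells was set against markers. Vimentin (VIM) averaged 4035 scaled TPM, CD44 1009, clusterin (CLU) 198, GJA1 68.8 and the glutamate transporter SLC1A3 20.8, while the astrocyte markers GFAP (0.783), AQP4 (0.0473) and S100B (0.00965) were at or near 0. The 9 astroglial and mesenchymal markers summed to 4944 to 5152 scaled TPM in A41 libraries, against 5959 to 6120 in ethanol libraries. The 5 neuronal markers summed to 74.6 to 82.7 scaled TPM in A41 libraries, against 92.1 to 95.8 in ethanol libraries. Both of these sums were lower with A41 without overlap, but not with A41 alone. All 3 A41 libraries lay above all 3 of ethanol for 8.27% of tested genes, and the share of genes below was not counted. The astroglial and mesenchymal sum, mostly VIM, was also below ethanol with bexarotene (5389 to 5659), A34 (5551 to 5907), A80 (5575 to 5795) and A98 (5717 to 5924). The neuronal sum, mostly TUBB3 (mean 68.6), was also below ethanol with bexarotene (81.0 to 91.5) and A34 (83.1 to 91.2). With A80 (87.9 to 104.5) and A98 (89.8 to 99.3) it overlapped ethanol. Of the 7 microglial and leukocyte markers, AIF1 was listed at 0 in 16 libraries and PTPRC averaged 0.0571 scaled TPM; the list summed to 178 to 245 in A41 libraries and 156 to 183 in ethanol libraries, nearly all of it CD68. The 6 endothelial markers summed to 4.71 to 5.62 scaled TPM in A41 libraries and 3.84 to 5.00 in ethanol libraries, and the 5 oligodendrocyte markers to 1.92 to 2.28 in A41 libraries and 1.99 to 2.90 in ethanol libraries. The part of these sums in the TGM2 difference was not tested, and in bulk RNA more TGM2 per cell and more cells that express it cannot be told apart.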

How the data were processed

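Each of the 18 libraries had 1 table of gene abundances. The tools named are STAR, StringTie and MultiQC and the build GRCh38, per the submitters' processing notes; their versions, the annotation release and strand handling are not stated there. Per the file headers, the authors deposited TPM, FPKM and Coverage; coverage is the signal in reads per base. No counts were held, so no count model was used. Groups and replicate numbers follow the labels; the tables of the A98 group carry another code in their names, and replicate numbers there differ in part from the titles. Same-numbered libraries of A41 and ethanol deviated together (r across genes 0.17, 0.31 and 0.12 for replicates 1, 2 and 3), with the second pair both rich in ribosomal RNA; no other pair of groups had all 3 values above 0.1.

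Scaled TPM is TPM over a library factor (0.419 to 1.21), the median of ratios of 16349 genes that were above 0 everywhere. The 18269 genes that reached 1 TPM in 3 or more of the 18 libraries were tested. A limma 3.58.1 model (R 4.3.3) of all 6 groups, with a trend on mean level, was fitted to log2(scaled TPM + 1). Fold changes are on that scale, which understates low genes. Tests are two-sided, adjusted p values are by Benjamini-Hochberg across the genes tested in each comparison, the threshold is 0.05 and intervals are 95%. The fit was tested on simulated data. Depth, which limits the precision of each value, came from the ratio of coverage to FPKM. Of 60675 gene IDs 58444 were in GENCODE release 29. No 2 libraries held identical values (0 pairs).

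TGM2 and all gene lists were chosen with earlier results of these data known. Named genes were TGM2, its family, list members past the threshold in A41 against ethanol with up to 4 more of highest level, the nearest 3 genes on each side, any overlapping gene, and the 8 of most similar pattern. RARB and CRABP2 were named after their values were seen. Alternatives were another pseudocount (0.1), no filter, other scalings, FPKM, no trend, a replicate block, fewer libraries and each library left out; 2 scalings (ribosomal RNA genes removed, and values relative to the median of all genes) were chosen after the data were seen.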

Additional observations from a re-analysis of the deposited data

How the results depend on the processing

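The rise of TGM2 with A41 over ethanol passed in 15 of 16 alternatives (limma adjusted p 6.3e-07 to 0.82), and single omissions gave log2 fold changes of 1.03 to 1.11. The exception was TPM as deposited, where ribosomal RNA takes a large share of 3 libraries. There TGM2 stood at 0.72 for A41 against ethanol, 0.64 against bexarotene, 0.27 against A34, 0.28 against A80 and 0.25 against A98, the mean of the rexinoids at 0.43 and the F test at an adjusted p of 0.95, none past the threshold. Median log2 fold changes of all genes there were −0.27 with A41, −0.16 with bexarotene, 0.07 with A34 and with A80, and 0.15 with A98. Relative to that median TGM2 with A41 stood at 0.99 over ethanol, 0.62 over A80 and 0.67 over A98. Fitting only the libraries compared ended the calls of A41 over bexarotene (0.78, adjusted p = 0.14), A34 (0.70, 0.33) and A80 (0.71, 0.24). Each such fit had fewer samples to estimate the spread. The SE was 0.102, 0.097 and 0.095 in these 3 comparisons, against 0.083 in the fit of all groups. It was 0.077 for A41 over ethanol and 0.072 over A98, where TGM2 still passed. Against ethanol, the calls of NRIP1 (0.059), HOXA5 (0.15), CD44 (0.31) and ITGB3 (0.050) with A41 also ended. With ribosomal RNA genes removed the mean of the rexinoids was 0.35 (adjusted p = 0.060), and its single omissions gave 0.45 to 0.49. Near-zero differences changed sign: A34 minus A98 was −0.016 and A80 minus A98 −0.024 with TPM as deposited, and −0.017 and −0.028 with ribosomal RNA genes removed. Omissions gave −0.051 to 0.093 for A98 against bexarotene and −0.063 to 0.058 for A34 against A80. RPRD1B with A41 was −0.25 with TPM as deposited and −0.10 with ribosomal RNA genes removed. The cause of these changes was not tested.

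Of 45 pairs of same-numbered libraries 11 correlated above 0.1 (range −0.36 to 0.31). All 3 pairs did so between A41 and ethanol, where TGM2 passed with a replicate block too (1.06, adjusted p = 6.3e-07), and between no other groups, whose libraries may share only a number. With the block TGM2 also passed with A34 (0.36, adjusted p = 0.017) and A80 (0.36, 0.017); replicate 1 was the highest TGM2 library in 6 of 6 groups. The block gave the highest number of genes called for A41 over ethanol (197, against 138), and TPM as deposited the lowest (4); single omissions gave 71 to 112. For A34 these were 166 and 0, against 15, for A80 117 and 0, against 8, and for the mean of the rexinoids 147 and 1, against 37. With bexarotene the number ran from 0 to 20, against 10, and with A98 from 2 to 9, against 6. For A41 over bexarotene it ran from 1 to 31, against 21, over A34 from 0 to 29, against 13, over A80 from 1 to 75, against 23, and over A98 from 1 to 35, against 24. Of the other A41 calls against ethanol, CYP26B1 (3.24) and STRA6 (2.17) passed with TPM as deposited, and DHRS3 (1.79, adjusted p = 0.15), SMAD3 (0.60, 0.82) and ITGB3 (0.55, 0.82) did not. All adjusted p are from limma.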
